A study of Mus musculus with 6 samples.

Results

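The circadian clock genes *Arntl*, *Npas2*, *Per1*, *Per2*, *Per3*, *Nr1d1*, *Nr1d2*, *Dbp*, *Tef* and *Ciart* were examined in mouse liver tumors, to ask whether the phase of the clock at collection differed between tumors or went with the genotype. They are 10 of the 34745 genes listed for these tumors and were taken by their symbols, each of which stands for 1 entry of the list. The RNA-seq data cover 3 *Prmt3 f/f* tumors (numbered 7, 66 and 71, called WT in the sample labels) and 3 *Prmt3 LKO* tumors (numbered 92, 93 and 94, called Prmt3-KO), with 1 library for each tumor. Both groups carried the floxed *Prmt3* alleles, were male, received diethylnitrosamine (DEN, 25 mg/kg) when 2 weeks old and 10% carbon tetrachloride (CCl4) at 0.5 ml/kg from 6 weeks, and were 26 weeks old when the tumors were taken. *Prmt3* encodes an arginine methyltransferase. The *Alb*-Cre transgene of *Prmt3 LKO* mice removes it from hepatocytes, so the other cells of a tumor keep the gene. The mice lived in a light cycle of 12 hours, and the clock time of collection, the order of collection and the time since the last meal are not given in the sources used here.

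The mammalian clock is a feedback loop of transcription. ARNTL (also called BMAL1), paired with CLOCK or NPAS2, binds E-boxes and switches on the Per and Cry genes, *Nr1d1*, *Nr1d2*, *Dbp*, *Tef* and *Ciart*, and the PER and CRY proteins then shut the activator off. NR1D1 and NR1D2 (REV-ERBs) in turn hold *Arntl* and *Npas2* down through ROR elements, so in liver *Arntl* and *Npas2* crest at the opposite side of the day from *Nr1d1* and *Dbp*, and the Per genes follow *Dbp* by some hours. A single time point shows a tumor's place in this cycle only through the balance of such opposed genes.

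The promoters of 9 of the 10 genes were found among the RefSeq promoters of GRCm38.p6 used here, where *Per2* has no entry, and 4 stretches are printed because they carry motifs of the kinds through which the opposed genes are controlled. The bases of a motif are in capitals, the strand is that of the gene, and motifs were searched on both strands in the 250 bases before the start. *Arntl* has 2 ROR elements (TNGGTCA), 200 and 181 bases before its start, and *Ciart* has 3 E-boxes (CACGTG), the nearest 44 bases before its start. *Per3* has 2 D-boxes (TTANGTAA), the element bound by DBP and TEF, and a ROR element on the other strand. *Per1* has an E-box 166 bases before 1 of its 2 listed starts and no motif before the other.
Arntl, chr7:113207255-113207300, plus strand: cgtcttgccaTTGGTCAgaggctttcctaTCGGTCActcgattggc
Ciart, chr3:95882257-95882354, minus strand: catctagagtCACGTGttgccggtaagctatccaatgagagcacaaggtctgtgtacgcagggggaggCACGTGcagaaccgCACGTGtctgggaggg
Per3, chr4:151044767-151044880, minus strand: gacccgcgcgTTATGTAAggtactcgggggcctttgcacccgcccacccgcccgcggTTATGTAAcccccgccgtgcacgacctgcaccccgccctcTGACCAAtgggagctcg
Per1, chr11:69098773-69098798, plus strand: cacccaagtcCACGTGcagggatgtg
E-boxes stood before 3 of the 9 matched genes (*Per1*, *Tef* and *Ciart*) and before 6.86% of all 27025 genes with a promoter. ROR elements stood before 3 of 9 (*Arntl*, *Per3* and *Tef*) and before 10.5% of all genes. The D-box was present in *Per3* alone among the 9 and in 2.44% of all genes, and the E-box variant CACGTT in *Nr1d1* alone and in 4.50% of all genes. These are matches of letters in a short window, and binding was not measured.

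Between 18440244 and 27976598 reads were counted per tumor, and 13892 genes passed the filter on low counts. Of the 10 clock genes 9 passed it, and *Npas2* did not. Levels are given as CPM, the read count scaled to the library size after TMM normalization, unless FPKM is named. Correlations of log2 CPM between tumors were 0.946 to 0.971 within and 0.948 to 0.972 across genotypes. *Prmt3*, the deleted gene, was at 6.60, 8.48 and 10.2 CPM in *Prmt3 f/f* tumors 7, 66 and 71 and at 2.80, 2.03 and 3.82 CPM in *Prmt3 LKO* tumors 92, 93 and 94, lower in each LKO tumor than in each f/f tumor. Nothing beyond the numbers of the mice says how the tumors were drawn, so p-values measure the spread between these 6 tumors only. In bulk tumor RNA, fewer cells of a type and less RNA per cell cannot be told apart.

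*Prmt3 f/f* tumor 7 stood apart from the other 5 tumors in most clock genes. With it set aside, f/f tumors 66 and 71 were both above every LKO tumor for *Per1*, *Per3* and *Npas2*, and the genotypes overlapped for the other clock genes. So few f/f tumors cannot show whether that order followed genotype. In tumor 7, *Arntl* and *Npas2* were the highest of the 6 tumors, and *Per1*, *Per2*, *Per3*, *Nr1d2*, *Dbp*, *Tef* and *Ciart* the lowest. *Nr1d1* was the exception, with an ordinary level in tumor 7.

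**Figure D1:**
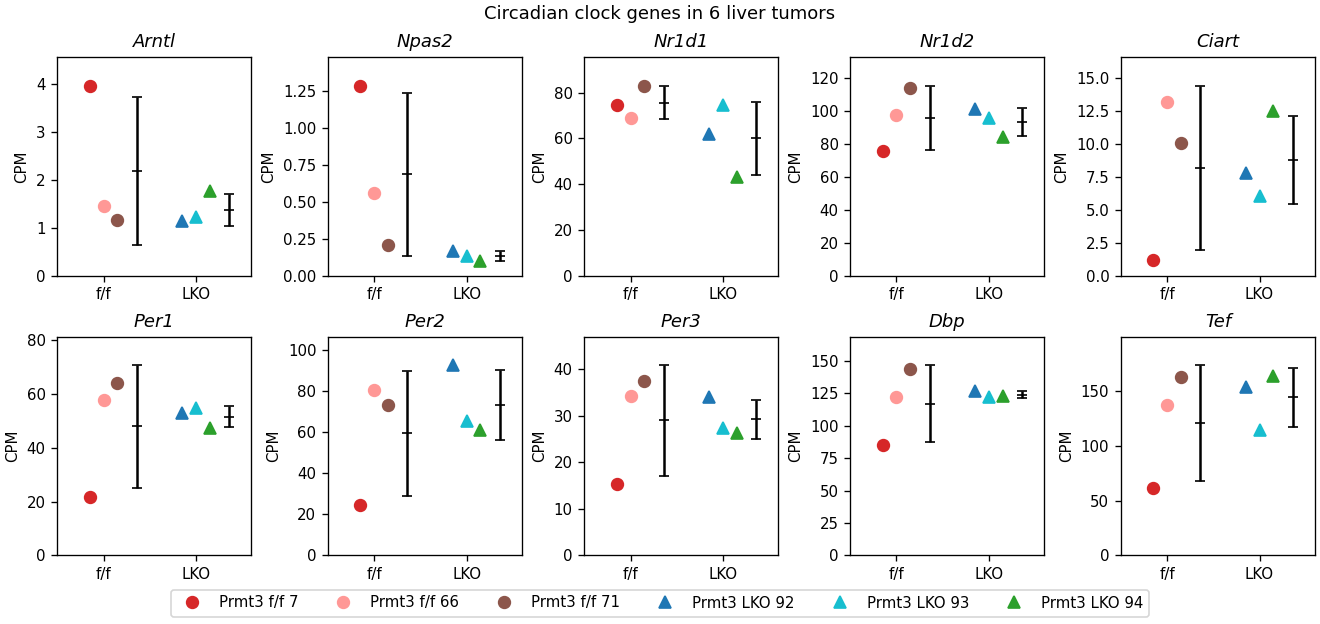
Level of each of the 10 clock genes (CPM, linear axis from 0) in 3 *Prmt3 f/f* tumors (circles) and 3 *Prmt3 LKO* tumors (triangles), with the mean and SD of each group beside its points. *Prmt3 f/f* tumor 7 (red) is the highest point for *Arntl* (3.97 CPM) and *Npas2* (1.29 CPM) and the lowest for *Per1* (21.8 CPM), *Per2* (24.4 CPM), *Per3* (15.3 CPM) and *Ciart* (1.20 CPM), while *Nr1d1* shows no such gap.

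Among the activators, *Arntl* (ENSMUSG00000055116, chr7:113207465-113314122), the partner without which the loop does not run, was at 3.97, 1.45 and 1.16 CPM in f/f tumors 7, 66 and 71, from 86, 31 and 33 reads. In LKO tumors 92, 93 and 94 it was at 1.14, 1.22 and 1.76 CPM, from 20, 27 and 35 reads. Tumor 7 thus had 3.26 times the median of the other 5 tumors, which spanned 1.14 to 1.76 CPM. Its 95% Poisson interval, 3.17 to 4.90 CPM, lay above the intervals of the other 5, which reached at most 2.44 CPM. Intervals of this kind cover counting error only. *Npas2* (ENSMUSG00000026077, chr1:39193731-39363236), which can take the place of CLOCK beside ARNTL, was at 1.29, 0.559 and 0.211 CPM in f/f tumors 7, 66 and 71, from 28, 12 and 6 reads. LKO tumors 92, 93 and 94 had 3, 3 and 2 reads, or 0.171, 0.135 and 0.10 CPM, which is near the limit of what these libraries can show.

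The period genes, whose proteins close the loop, had the reverse order. *Per1* (chr11:69095217-69109960) was at 21.8, 57.8 and 64.0 CPM in f/f tumors 7, 66 and 71 and at 52.7, 54.6 and 47.2 CPM in LKO tumors 92, 93 and 94. *Per2* (chr1:91415982-91459324) was at 24.4, 80.3 and 73.2 CPM and at 92.5, 65.5 and 61.1 CPM in the same order of tumors. Tumor 7 was the lowest for both, with 0.400 times the median of the other 5 for *Per1* and 0.333 times for *Per2*. *Per3* (chr4:151003652-151044665) was at 15.3, 34.2 and 37.4 CPM in f/f tumors and at 34.1, 27.4 and 26.4 CPM in LKO tumors, so that tumor 7 had 0.449 times the median of the others. *Per3* lies within the annotated span of *Camta1* on the same strand, which had only 37 to 54 reads per tumor.

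The genes of the nuclear receptors NR1D1 and NR1D2, the repressors of *Arntl*, spread less than the Per genes over the 6 tumors, while without tumor 7 *Nr1d1* spread more than any Per gene. *Nr1d1* (chr11:98767932-98775333) was at 74.8, 69.0 and 83.1 CPM in f/f tumors 7, 66 and 71 and at 62.1, 74.8 and 43.0 CPM in LKO tumors 92, 93 and 94. Its lowest level was in LKO tumor 94, and tumor 7 had 1.08 times the median of the other 5. *Nr1d2* (chr14:18204054-18239127) was at 75.6, 97.8 and 114 CPM in f/f tumors and at 101, 95.5 and 84.0 CPM in LKO tumors, lowest in tumor 7 at 0.773 times the median of the others. *Nr1d1* overlaps *Thra* on the opposite strand by 1075 bases, *Thra* had 207 to 311 reads per tumor, and whether reads were counted by strand is not given in the sources used here.

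The PAR bZIP factors DBP and TEF carry the rhythm to liver enzymes through D-boxes. *Dbp* (ENSMUSG00000059824, chr7:45705088-45710155) was at 85.2, 122 and 144 CPM in f/f tumors 7, 66 and 71 and at 127, 122 and 123 CPM in LKO tumors 92, 93 and 94. Without tumor 7 it was among the steadiest genes, with an SD of log2 CPM of 0.10, larger than that of 7.44% of the genes tested. *Tef* (chr15:81802421-81826861) was at 61.1, 137 and 163 CPM in f/f tumors and at 154, 114 and 164 CPM in LKO tumors, with tumor 7 at 0.397 times the median of the others. *Dbp* overlaps *Sphk2*, which had 361 to 696 reads per tumor, by 689 bases on the opposite strand.

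*Ciart* (chr3:95878503-95882251), the gene of a repressor of the ARNTL and CLOCK pair also called CHRONO, spread most. It was at 1.20, 13.2 and 10.1 CPM in f/f tumors 7, 66 and 71, from 26, 284 and 288 reads. In LKO tumors 92, 93 and 94 it was at 7.82, 6.04 and 12.5 CPM, from 137, 134 and 249 reads. Tumor 7 had 0.119 times the median of the others, and its Poisson interval of 0.783 to 1.76 CPM lay below the intervals of the other 5, of which the lowest bound was 5.06 CPM. Over the 6 tumors the SD of log2 CPM was 1.26, larger than that of 97.8% of the genes tested, and without tumor 7 it was 0.47, larger than that of 77.9%.

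The spread of the other genes shrank in the same way when tumor 7 was set aside. The SD of log2 CPM went from 0.66 to 0.25 for *Arntl*, from 0.56 to 0.16 for *Per1*, from 0.68 to 0.24 for *Per2*, from 0.47 to 0.22 for *Per3* and from 0.55 to 0.22 for *Tef*. It went from 0.21 to 0.16 for *Nr1d2*, and for *Nr1d1* it was 0.34 with and 0.36 without tumor 7.

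A limit of 1.5-fold was used to count how many genes set a tumor apart from every other tumor. By this count tumor 7 was below every other tumor for 5 of the 9 tested clock genes (*Per1*, *Per2*, *Per3*, *Tef* and *Ciart*) and for 3.10% of all genes tested. It was above every other tumor for 1 of 9, *Arntl*, and for 3.27% of all genes tested, and *Npas2*, below the filter, was also above by more than this. No clock gene passed the limit in any of the other 5 tumors, in which 1.16% to 2.77% of all genes tested were below and 0.389% to 1.68% above every other tumor. Tumor 7 was the lowest of the 6 for 7 of the 9 clock genes and for 23.6% of all genes tested.

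Levels of different genes were compared by FPKM, which divides by length. In order of median FPKM over the 6 tumors the genes were *Dbp* (24.1), *Nr1d1* (20.6), *Nr1d2* (16.3), *Per2* (12.1), *Tef* (10.5), *Per1* (6.44), *Per3* (2.40), *Ciart* (2.09), *Arntl* (0.461) and *Npas2* (0.0382). The ranges over the tumors overlapped for every pair of neighbours in this order except *Arntl*, at 0.373 FPKM or more, and *Npas2*, at 0.269 FPKM or less. For *Tef* and *Per1*, *Per1* and *Per3*, and *Ciart* and *Arntl*, they overlapped only through tumor 7. In tumor 7 the order was changed: *Nr1d1* came first at 22.0 FPKM and *Dbp* second at 17.4 FPKM, and *Arntl* at 1.41 FPKM stood above *Per3* at 1.24 FPKM and *Ciart* at 0.292 FPKM. In each of the other 5 tumors *Arntl* was below both.

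The balance of opposed genes was read within each library, where the scaling between tumors plays no part. Of the reads of *Arntl* and *Ciart* together, *Arntl* took 76.8% in f/f tumor 7 (exact Clopper-Pearson 95% interval 67.9 to 84.2%). It took 9.84% (6.79 to 13.7%) in f/f tumor 66 and 10.3% (7.18 to 14.1%) in f/f tumor 71. In LKO tumors 92, 93 and 94 it took 12.7% (7.96 to 19%), 16.8% (11.4 to 23.5%) and 12.3% (8.74 to 16.7%). For this pair the intervals of the other 5 tumors overlapped one another across the genotypes, and tumor 7 was far above them. *Ciart* was the clock gene that was lowest in tumor 7 relative to the other tumors, so the width of this gap follows in part from the choice of pair. Against *Dbp*, which is counted in far more reads, *Arntl* took 4.45% (3.57 to 5.46%) in tumor 7 and between 0.797% and 1.41% in the other 5. No share was taken against *Nr1d1*, whose level in tumor 7 was ordinary. *Arntl* and *Nr1d1* had 86 and 1622 reads in tumor 7, and 35 and 857 reads in LKO tumor 94. The gap between these tumors was thus narrower for that pair.

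**Figure D2:**
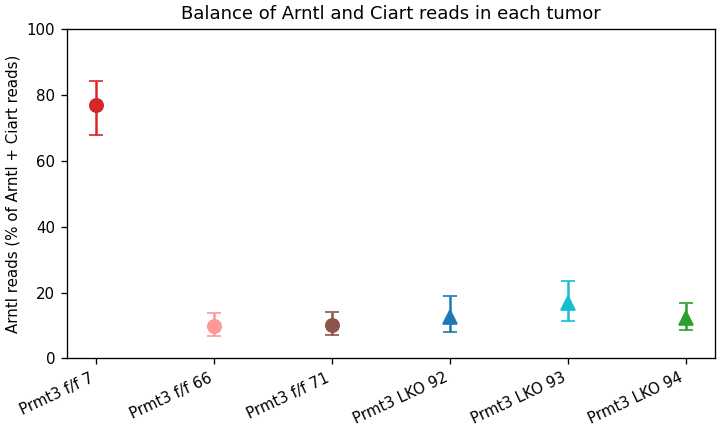
Share of *Arntl* reads among the reads of *Arntl* and *Ciart* (percent, linear axis from 0 to 100) in each tumor, with exact 95% Clopper-Pearson intervals for counting error as bars. The share is 76.8% in *Prmt3 f/f* tumor 7 and lies between 9.84% and 16.8% in the other 5 tumors of both genotypes. *Ciart* is the clock gene lowest in tumor 7 relative to the other tumors.

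A phase contrast summed this balance over genes: the mean log2 CPM of *Arntl* and *Npas2* minus the mean log2 CPM of *Nr1d1*, *Nr1d2*, *Dbp*, *Tef*, *Per3* and *Ciart*. *Per1* and *Per2* were left out of it because they also answer to glucocorticoids. The contrast was -3.61, -5.93 and -6.76 in f/f tumors 7, 66 and 71 and -6.64, -6.54 and -6.50 in LKO tumors 92, 93 and 94. Tumor 7 was 2.32 log2 units above the next tumor, while the other 5 lay within 0.82 log2 units. The LKO minus f/f difference of the means was -1.13 log2 units, and -0.21 without tumor 7. Its sign without tumor 7 was not stable, being 0.045 on FPKM and 0.15 for *Arntl* minus *Dbp* alone. The 3 LKO tumors had an SD of 0.072 log2 units on this contrast, and the 3 f/f tumors had an SD of 1.63. *Npas2*, which enters the contrast, had only 3, 3 and 2 reads in LKO tumors 92, 93 and 94, so the small LKO spread is poorly measured. For *Arntl* minus *Dbp* alone the SD was 0.33 in LKO and 1.29 in f/f tumors. The LKO minus f/f difference was then -0.58 with all tumors.

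None of the 9 tested clock genes passed the test between the genotypes. In the edgeR quasi-likelihood test, adjusted by Benjamini-Hochberg over all genes, 0 of 9 passed an adjusted p of 0.05 with a fold of at least 2 or at most 0.5, and 0% of all 13892 genes did. At an unadjusted p under 0.05, 0 of 9 were lower and 0 of 9 were higher in LKO tumors, against 4.37% of all genes lower and 2.20% higher. No tested clock gene had all LKO tumors below all f/f tumors or the reverse, which 6.59% and 5.57% of all genes had. The median log2 fold change of the 9 was 0.084, beside 4.3e-04 for all genes tested, and without tumor 7 it was -0.19, beside -0.0082.

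The log2 fold change of LKO over f/f tumors was largest in size for *Arntl*, at -0.67 (standard error 0.52, Benjamini-Hochberg adjusted p = 0.907 by the edgeR quasi-likelihood test), from a mean of 2.19 ± 1.55 CPM (SD, n = 3) to 1.37 ± 0.336 CPM (SD, n = 3). Without f/f tumor 7 it was 0.071 (standard error 0.39), so its direction rested on that tumor. Among the repressors of the loop the log2 fold change was 0.10 (standard error 0.36) for *Per1*, 0.30 (0.41) for *Per2*, 0.014 (0.32) for *Per3* and 0.10 (0.70) for *Ciart*. All 4 turned to the other direction without tumor 7, to -0.25 for *Per1*, -0.081 for *Per2*, -0.30 for *Per3* and -0.42 for *Ciart*. For *Dbp* and *Tef* the log2 fold changes of 0.084 (standard error 0.20) and 0.25 (0.35) also turned, to -0.11 and -0.072. *Nr1d1*, at 75.6 ± 7.10 CPM in f/f and 60.0 ± 16.0 CPM in LKO tumors (SD, n = 3), differed by -0.33 on the log2 scale (standard error 0.21, adjusted p = 0.874 by the edgeR quasi-likelihood test) and -0.35 without tumor 7. *Nr1d2* was at -0.039 (standard error 0.18) and -0.19.

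**Figure D3:**
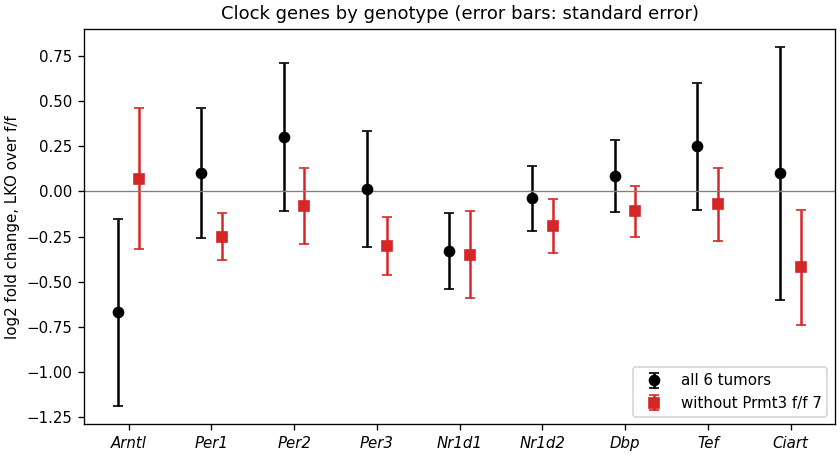
Log2 fold change of *Prmt3 LKO* over *Prmt3 f/f* tumors for the 9 tested clock genes, with all 6 tumors (black) and without f/f tumor 7 (red), error bars being standard errors of the edgeR quasi-likelihood fit. With all tumors *Arntl* is at -0.67 and the Per genes, *Dbp*, *Tef* and *Ciart* are above 0, and without tumor 7 *Arntl* is at 0.071 and the other 8 are below 0.

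*Npas2* was the clock gene whose groups did not overlap: its 3 LKO tumors, at 0.10 to 0.171 CPM, were below its 3 f/f tumors, at 0.211 to 1.29 CPM. The exact permutation test (two-sided) reached p = 0.1, and no smaller value is possible with 3 against 3. In a fit with no filter the log2 fold change was -2.29 (standard error 0.81, unadjusted p = 0.0177, adjusted p = 0.743 over 20277 genes by the edgeR quasi-likelihood test). With the filter kept, it entered 4 of the fits that leave out 1 tumor, and only through its reads in f/f tumors 7 and 66. In those fits the edgeR quasi-likelihood test gave an unadjusted p between 0.00550 and 0.0666 and an adjusted p between 0.494 and 0.996. As entry rested on the group where *Npas2* was high, these values are no support for a difference between the genotypes. It failed the filter when f/f tumor 7 or f/f tumor 66 was left out, so no fit without tumor 7 could be read. The LKO tumors had 2 or 3 reads each, and the size of this difference is poorly measured.

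Across the 6 tumors, *Arntl* correlated negatively with 8 of the other 9 clock genes in log2 CPM. By exact permutation over the tumors with adjustment over the 9 relations, 5 passed 0.05 on Pearson's r: *Per1* (r = -0.96, rho = -0.60), *Per2* (r = -0.95, rho = -0.83), *Per3* (r = -0.94, rho = -0.71), *Nr1d2* (r = -0.88, rho = -0.89) and *Dbp* (r = -0.94, rho = -0.77), each with an exact permutation p of 0.0450 after adjustment. Their raw exact permutation p lay between 0.00833 and 0.0250. On Spearman's rho 0 of 9 passed, with a smallest adjusted exact permutation p of 0.263. *Tef* (r = -0.85, rho = -0.31) and *Ciart* (r = -0.81, rho = -0.086) did not pass, *Nr1d1* had r = -0.029 (rho = -0.20), and *Npas2* had r = 0.77 (rho = 0.26). The relations rested on tumor 7: without it and LKO tumor 94, the tumors farthest from the median of *Arntl*, r was 0.057 for *Per1*, -0.043 for *Per2*, -0.046 for *Per3*, -0.45 for *Nr1d2* and -0.56 for *Dbp*. Without tumor 7 alone 0 of 9 passed, with a smallest adjusted exact permutation p of 0.412. With any other single tumor left out 0 of 9 passed either, the smallest adjusted exact permutation p lying between 0.050 and 0.150, and 0 of 9 passed on FPKM or without TMM, with 0.0875 for both.

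Other parts of the clock were read from a list of 16 regulators, of which 15 were tested and *Rorb*, with at most 1 read per tumor, was not. The cryptochrome genes were low in tumor 7, like the Per genes. *Cry1*, a repressor of the loop, was at 3.00, 15.3 and 13.0 CPM in f/f tumors 7, 66 and 71 and at 14.4, 6.18 and 7.68 CPM in LKO tumors 92, 93 and 94. *Cry2* was at 13.9, 41.1 and 46.0 CPM and at 28.1, 23.8 and 31.0 CPM. Tumor 7 was the lowest tumor for both, and it was the lowest for 8 of the 15 regulators, beside 23.6% of all genes tested. It was at least 1.5-fold below every other tumor for 3 of 15, *Cry1* and *Cry2* among them, beside 3.10% of all genes tested.

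*Clock* itself, the gene of the usual partner of ARNTL, differed little between tumors, with 18, 15.9 and 12.4 CPM in f/f and 19.9, 14.2 and 15.7 CPM in LKO tumors. *Rora*, whose product activates *Arntl* through ROR elements, was between 54.7 CPM in LKO tumor 94 and 97.9 CPM in LKO tumor 92, with 74.2 CPM in tumor 7. *Nfil3*, the gene of the repressor that competes for D-boxes, was between 5.90 CPM in tumor 7 and 15 CPM in f/f tumor 71. *Hlf*, the PAR bZIP relative of *Dbp* and *Tef*, was at 14.5, 33.4 and 33.1 CPM in f/f tumors 7, 66 and 71 and at 33.1, 15.2 and 38.2 CPM in LKO tumors 92, 93 and 94, so it was low in 1 tumor of each genotype. The E-box repressors had 116 CPM (tumor 7) to 284 CPM (f/f tumor 71) of *Bhlhe40* and 1.37 CPM (LKO tumor 92) to 3.18 CPM (tumor 7) of *Bhlhe41*. Among genes of the kinases and ligases that set the stability of PER and CRY, *Fbxl21* was at 0.784 to 2.23 CPM, *Csnk1d* at 65.2 to 91.2 CPM, *Csnk1e* at 12.3 to 16.3 CPM, *Gsk3b* at 30.1 to 36.9 CPM and *Btrc* at 13.8 to 19.3 CPM.

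Of the 15 regulators 0 passed the adjusted limit between the genotypes, and their median log2 fold change was -0.14. At an unadjusted p under 0.05, 1 was lower and 1 higher, beside 4.37% and 2.20% of all genes tested. The higher one was *Fbxl21*, of an F-box protein that binds CRY, at 0.784, 1.07 and 0.878 CPM in f/f and 2.23, 1.35 and 1.51 CPM in LKO tumors (log2 fold change 0.89, standard error 0.36, adjusted p = 0.742 by the edgeR quasi-likelihood test). Without tumor 7 the median of the list was -0.26, and 2 were lower and 0 higher at this limit, beside 4.91% and 3.99% of all genes. *Cry2* was 1 of these 2 regulators, with a log2 fold change of -0.67 without tumor 7 (unadjusted p = 0.00476, adjusted p = 0.446 by the edgeR quasi-likelihood test). Against the phase contrast, 0 of the 15 regulators passed after adjustment by exact permutation of r, with a smallest adjusted p of 0.242, and *Csnk1d* (r = -0.94, rho = -0.94, raw exact permutation p = 0.0347 for r) and *Bhlhe41* (r = 0.75, rho = 0.71, raw exact permutation p = 0.0417 for r) were under 0.05 before it. Without the tumors farthest from the median of the contrast, f/f 7 and f/f 66, r was -0.81 for *Csnk1d* and -0.0013 for *Bhlhe41*. With values centred by genotype 3 of the 15 passed.

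**Figure D4:**
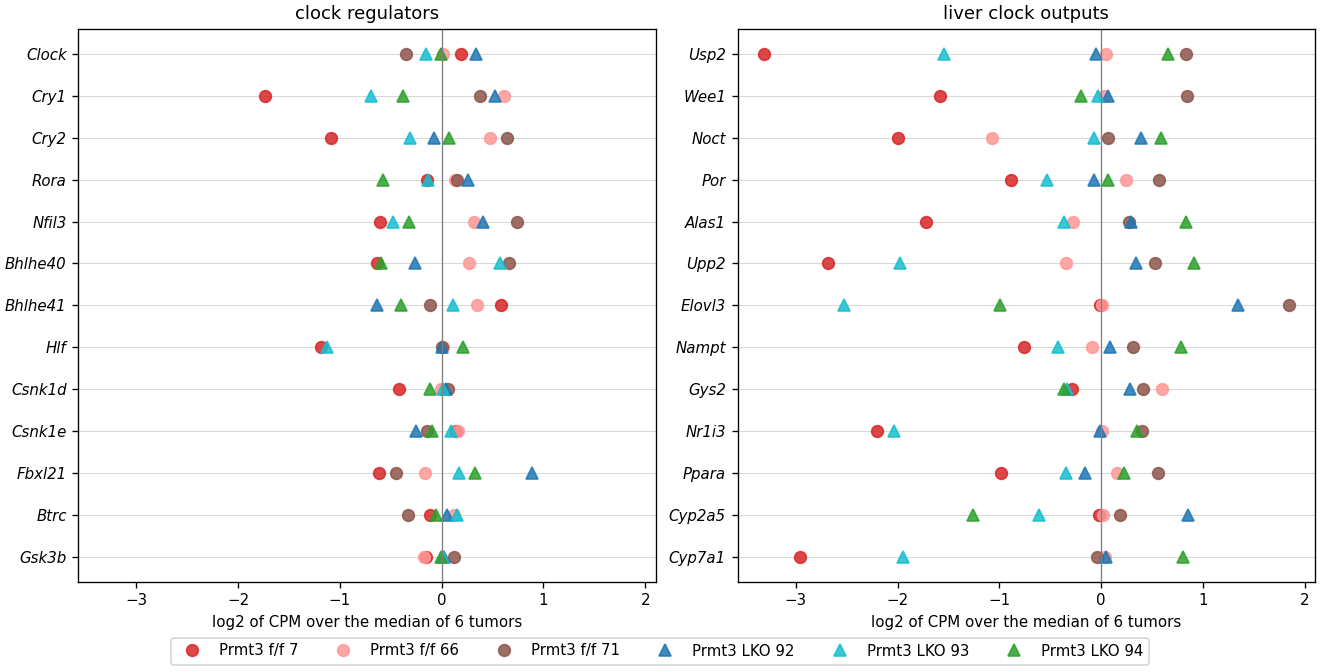
Level of 13 of the 15 tested clock regulators (left) and 13 liver outputs of the clock (right) in each tumor, as log2 of CPM over the median of the 6 tumors, with circles for *Prmt3 f/f* and triangles for *Prmt3 LKO* tumors. *Prmt3 f/f* tumor 7 (red) is the lowest point for *Cry1*, *Cry2* and *Hlf* on the left and for 10 of 13 outputs on the right. *Prmt3 LKO* tumor 93 (cyan) is the next lowest for *Hlf*, *Usp2*, *Upp2*, *Nr1i3* and *Cyp7a1*.

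Among 13 genes known as outputs of the clock in liver, tumor 7 was the lowest for 10 and at least 1.5-fold below every other tumor for 7. The shares of all genes tested were 23.6% and 3.10%. Here LKO tumor 93 went with tumor 7. *Usp2*, the gene of a deubiquitinase, was at 1.94, 20.0 and 34.5 CPM in f/f tumors 7, 66 and 71 and at 18.6, 6.63 and 30.4 CPM in LKO tumors 92, 93 and 94. *Cyp7a1*, the rate-limiting enzyme of bile acid synthesis, was at 4.01, 32.1 and 30.3 CPM and at 32.2, 8.11 and 54.4 CPM. *Nr1i3*, the gene of the nuclear receptor CAR and a target of the PAR bZIP factors, was at 8.86, 40.9 and 53.7 CPM and at 40.4, 9.92 and 51.8 CPM. Tumor 7 and LKO tumor 93 were the 2 lowest tumors for 8 of the 13 outputs, for 5 of the 15 regulators and for 2 of the 9 clock genes, *Tef* and *Ciart*, against 11.5% of all genes tested. LKO tumor 93 had *Arntl* at 1.22 CPM, *Per1* at 54.6 CPM and *Dbp* at 122 CPM, all inside the range of the other LKO and f/f tumors apart from tumor 7. *Npas2*, *Per2*, *Per3*, *Nr1d1* and *Nr1d2* were inside that range too. *Tef* at 114 CPM and *Ciart* at 6.04 CPM were below it. So were 5 of the 15 regulators, among them *Hlf* at 15.2 CPM and *Cry1* at 6.18 CPM. Tumor 7 and LKO tumor 93 were also the 2 lowest for 3 of 7 hepatocyte markers and 3 of 4 endothelial markers. *Cps1*, the urea cycle enzyme gene among the hepatocyte markers, was at 957 CPM in tumor 7 and 1155.1 CPM in LKO tumor 93, beside 2162.6 to 3003.5 CPM in the other 4 tumors. Differences were smaller for *Hnf4a*, at 667 and 622 CPM beside 683 to 759 CPM, and for *Fah*, at 319 and 325 CPM beside 354 to 466 CPM. *Alb* and *Apoa1* were lowest in neither of these tumors. The part of these markers in the low outputs was not tested.

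By genotype, 0 of 13 outputs were under an unadjusted p of 0.05 in either direction, beside 4.37% lower and 2.20% higher of all genes tested. Their median log2 fold change was -0.029. *Noct*, the gene of the deadenylase nocturnin, had the largest, 1.08 (standard error 0.47, adjusted p = 0.760 by the edgeR quasi-likelihood test), from 8.35, 15.8 and 34.9 CPM in f/f to 43.6, 31.7 and 49.9 CPM in LKO tumors. *Elovl3*, of a fatty acid elongase, had the smallest, -0.83 (standard error 0.93). Without tumor 7 the median of the outputs was -0.45, with 2 of 13 lower and 0 higher at an unadjusted p under 0.05, where 4.91% of all 14150 genes of that fit were lower and 3.99% higher.

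*Per1* and *Per2* also follow glucocorticoids, feeding, temperature and other quick signals, so lists for these were read beside the clock genes. Of 8 glucocorticoid targets, tumor 7 was the lowest for 6, and tumor 7 and LKO tumor 93 were the 2 lowest for 5. *Tat*, the tyrosine aminotransferase gene, was at 354, 1269.9 and 1780.5 CPM in f/f tumors 7, 66 and 71 and at 1747.4, 373 and 1936.3 CPM in LKO tumors 92, 93 and 94, while *Per1* and *Per2* were low in tumor 7 and not in LKO tumor 93. Of 15 fasting and feeding genes tumor 7 was the lowest for 7. Of 12 immediate early genes it was the lowest for 2, and of 9 temperature genes for 2. Among all genes tested tumor 7 was the lowest for 23.6%, and tumor 7 and LKO tumor 93 were the 2 lowest for 11.5%. The part of these signals in the clock genes' levels was not tested.

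Tumor 7 was also at the edge of the 6 tumors in some other features. All 6 proliferation genes were highest in it, with a sum of 101 CPM beside 52.4 to 78.4 CPM in the other 5 tumors. *H19*, an imprinted RNA of fetal liver, was at 201 CPM in tumor 7 and at 1.83 to 16.0 CPM in the others. All 4 endothelial markers were lowest in it, with a sum of 168 CPM beside 195 to 243 CPM. Of 7 hepatocyte markers 3 were lowest and 1 was highest in it, and their sum, 158535.6 CPM, was inside the range of the other tumors, 131596.3 to 193664.0 CPM. Most of that sum was *Alb*, at 131183.9 CPM in tumor 7, while *Cps1* had 0.340 times the median of the other 5. None of these markers was at 0 in a tumor, and their part in the clock genes' levels was not tested.

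Other markers parted the genotypes, and their sums in tumor 7 were close to those in the other f/f tumors. The 6 leukocyte markers summed to 110.2 to 129 CPM in f/f and 65.7 to 84.4 CPM in LKO tumors, and the 4 red blood cell markers to 68.4 to 85.3 CPM and 19.3 to 48.6 CPM. Kidney markers, of which 3 of 5 passed the filter, summed to 2.85 to 3.96 CPM in f/f and 8.24 to 11.9 CPM in LKO tumors, and *Slc22a6* was at 0 in all f/f tumors. The clock genes showed no such order by genotype, apart from *Npas2*.

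The genes most like the phase contrast were ranked by Pearson's r over the 6 tumors, among 9590 genes with a mean of at least 5 CPM. The highest r were those of *Glis3* (0.995), *Fundc2* (0.989), *Akr1b10* (0.985), *Nudt19* (0.982) and *Cep44* (0.981), and the lowest those of *Bcr* (-0.995), *Crtc2* (-0.995), *Btbd9* (-0.995), *Slc25a3* (-0.993) and *Ushbp1* (-0.991). *Glis3* was at 13.3 CPM in tumor 7 and 4.29 to 5.83 CPM in the others, and *Bcr* at 26.2 CPM in tumor 7 and 36 to 39.6 CPM in the others. Of the 9590 genes, 473 (4.93%) had r above 0.9 in size and 138 (1.44%) above 0.95, and the genes named are the ends of this ranking.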

How the data were processed

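RNA-seq was done on 3 *Prmt3 f/f* and 3 *Prmt3* LKO liver tumors. The submitters' processing notes name bcl2fastq 2.19, HISAT2 2.0.4, StringTie 1.3.0 and GRCm38, while the counting tool, the annotation and the use of strand are not given in the sources used here. The authors deposited 1 table with a raw read count and an FPKM value for each of 34745 genes and each tumor, and the deposited FPKM divide the count by gene length and total count. Blank lines were dropped, and 0 columns of values were left unused.

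Counts were filtered with filterByExpr (minimum count 10, minimum total 15), scaled by TMM and fitted in edgeR 4.0.16 (R 4.3.3) with genotype as the only term. P-values came from its quasi-likelihood test and were adjusted over 13892 genes by Benjamini-Hochberg. A call needed an adjusted p below 0.05 and a fold of at least 2 or at most 0.5. Log2 CPM for correlations and contrasts took a prior count of 2. Exact permutation tests were two-sided, over the 6 tumors. With 3 counts as the limit, a gene without a read could be at up to 0.107 to 0.163 CPM, depending on the tumor. The fit was tested on simulated data.

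The members and lists were chosen with earlier results of these data known. The genes named were the 10 clock genes, the clock regulators, in each other list the genes of largest and smallest log2 fold change and those at an unadjusted p under 0.05, the 5 most and 5 least like the phase contrast, and *Prmt3*. Some genes of these lists enter the counts only and are not reported here by name. *Usp2*, *Upp2*, *Cyp7a1* and *Nr1i3*, and the 1.5-fold limit and the joint count for tumor 7 and LKO tumor 93, were picked out once values had been seen. The pairs for the read shares were not fixed in advance either, and *Nr1d1* was left out of them for its level in tumor 7. Alternatives were DESeq2 1.42.0, limma-voom (limma 3.58.1), no TMM, other filters, FPKM with a pseudocount of 1 or 0.1, a prior count of 0.5, centring by genotype, and each tumor left out in turn.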

Additional observations from a re-analysis of the deposited data

How the results depend on the processing

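Of the clock genes 0 were called between the genotypes under every alternative run. Over all genes, 52 were called with DESeq2 and 2 with no filter, against 0 otherwise. Without f/f tumor 7 the log2 fold change turned to 0.071 for *Arntl*, -0.25 for *Per1*, -0.081 for *Per2*, -0.30 for *Per3*, -0.11 for *Dbp*, -0.072 for *Tef* and -0.42 for *Ciart*. *Per3* also turned without TMM (-0.0061) and without LKO tumor 92 (-0.11), *Nr1d2* without f/f tumor 71 (0.11) and without LKO tumor 94 (0.033), and *Ciart* without LKO tumor 94 (-0.24). With each tumor left out the log2 fold changes were between -0.97 and 0.071 for *Arntl*, -0.25 and 0.37 for *Per1*, -0.081 and 0.58 for *Per2*, -0.30 and 0.24 for *Per3*, -0.19 and 0.11 for *Nr1d2*, -0.11 and 0.26 for *Dbp*, -0.072 and 0.54 for *Tef* and -0.42 and 0.62 for *Ciart*. *Nr1d1* kept its direction under every alternative run, between -0.52 and -0.14. The cause was not tested in any of these. The number of *Arntl* correlations past 0.05, which was 5, was 0 on FPKM, 0 without TMM and 0 whichever tumor was left out. Correlations of the phase contrast with regulators passed for 3 genes when centred by genotype, against 0. The genotype difference of the phase contrast was between -1.79 and -0.21 with each tumor left out, the latter without f/f tumor 7, and between -1.30 and -0.58 under the other alternatives. With tumor 7 left out as well, it was 0.045 on FPKM and 0.15 for *Arntl* minus *Dbp* alone. For *Prmt3* the adjusted p was 0.592 by the edgeR quasi-likelihood test and 0.00357 with DESeq2. No paired analysis was possible because the groups share no replicate numbers. Low counts limit *Npas2*, *Arntl* and the tumor 7 value of *Ciart*, and 3 tumors a group limit all comparisons.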

Other observations

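Genes that answer to hormones and feeding were compared between the genotypes with the edgeR quasi-likelihood test, and 0 passed after adjustment. With DESeq2, *Scd1* passed (adjusted p = 0.0301). Of 15 fasting and feeding genes, 1 was lower and 2 were higher in LKO tumors at an unadjusted p under 0.05, beside 4.37% and 2.20% of all genes tested, and without f/f tumor 7 5 were lower and 2 higher, beside 4.91% and 3.99%. *Scd1*, of the stearoyl-CoA desaturase, was at 4788.7, 4522.4 and 7599.9 CPM in f/f tumors 7, 66 and 71 and at 10737.3, 9913.2 and 14552.3 CPM in LKO tumors 92, 93 and 94, a log2 fold change of 1.06 and the largest of this list. *Fasn*, the fatty acid synthase gene, was at 682, 1318.1 and 1306.3 CPM and at 1955.1, 2251.1 and 1925.6 CPM, a log2 fold change of 0.89. For both, each LKO tumor was above each f/f tumor, as was so for 3 of the 15 genes of this list and for 5.57% of all genes tested. *Pdk4*, of the kinase that holds pyruvate dehydrogenase inactive in fasting, had the smallest log2 fold change, -1.03, at 7.01, 20.0 and 26.2 CPM in f/f and 9.31, 8.70 and 8.09 CPM in LKO tumors, and was lowest in f/f tumor 7.

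Of 8 glucocorticoid targets 1 was lower at an unadjusted p under 0.05, beside 4.37% of all genes tested. Without f/f tumor 7, 5 were, beside 4.91%, and the median log2 fold change went from -0.32 to -0.68. Tumor 7 was the lowest tumor for 6 of these 8, so leaving it out raises the f/f mean of those genes. With all tumors the lower one was *Mt2*, of a metallothionein, at 24.7, 72.0 and 105 CPM in f/f and 24.0, 42.6 and 25.1 CPM in LKO tumors. Its log2 fold change was -1.14, and *Tat* had the largest of the list, 0.25. Of 9 temperature genes 1 was higher, beside 2.20% of all genes tested. It was the heat shock gene *Hspa1a*, at 9.36, 2.94 and 4.99 CPM in f/f and 13.9, 15.9 and 10.7 CPM in LKO tumors. Its log2 fold change was 1.23, while *Hspa8* had the smallest, -0.17. Of 12 immediate early genes 0 were under this limit, between -0.78 for *Nr4a1* and 0.51 for *Atf3*, and of 6 proliferation genes 0, between -0.29 for *Mki67* and 0.080 for *Ccnb1*. Among 4 liver tumor markers *H19* was lower, with a log2 fold change of -3.15 that was -0.33 without f/f tumor 7, and *Igf2bp3* had the largest, 1.16.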
